A study of Mus musculus with 8 samples.

Results

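The genes that let a cell show peptides on MHC class I were followed in pancreatic islets of NOD mice, which become diabetic through an autoimmune attack on their islets. The 10 genes were chosen by name: the heavy chains H2-K1 and H2-D1, their light chain B2m, the peptide transporter subunits Tap1 and Tap2, the loading factor Tapbp, the immunoproteasome subunits Psmb8, Psmb9 and Psmb10, and the transcriptional regulator Nlrc5. All 10 were found among the 13725 genes of the deposited expression table, and all 10 were among the 12231 genes tested. The 8 RNA-seq libraries came from islets of 10-week-old female NOD mice, with 4 libraries from mice given vehicle (replicates 1, 3, 4 and 5) and 4 from mice given PAHSA (replicates 1, 2, 3 and 4). PAHSAs are lipids in which palmitic acid is esterified to a hydroxy stearic acid. The sample labels spell the treatment PASHA and the series title PAHSA, and the latter is used here. The labels give no dose, route or length of treatment. All mice of both groups carried the same NOD genotype, so no other strain serves as a control. The design text counts 4 mice per group, whereas the extraction protocol describes pools of islets from 2 mice, so a library may stand for 1 animal or a pool, and p-values measure only the spread between these libraries.

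Nearly all nucleated cells carry MHC class I. Cytosolic proteins are cut into peptides by the proteasome, the TAP transporter moves the peptides into the endoplasmic reticulum, tapasin (Tapbp) holds empty class I molecules at the transporter, and the heavy chain paired with beta-2 microglobulin carries the loaded peptide to the surface, where CD8 T cells read it. Interferon induces most of these genes, and it exchanges the catalytic proteasome subunits Psmb5, Psmb6 and Psmb7 for Psmb8, Psmb9 and Psmb10. Islets of NOD mice are attacked by T cells, and beta cells of inflamed islets are known for raised class I.

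In the GRCm38 annotation (GENCODE M21), 7 of the 10 genes lie on chromosome 17, within or beside the MHC, while Psmb10 and Nlrc5 lie on chromosome 8 and B2m on chromosome 2. All are protein-coding. H2-K1 spans chr17:33996017-34000347 on the minus strand and H2-D1 spans chr17:35262730-35267499 on the plus strand. B2m spans chr2:122147686-122153083 and Nlrc5 spans chr8:94434356-94527272, both on the plus strand. Psmb9, Tap1, Psmb8 and Tap2 sit side by side in 34.3 kb (chr17:34181987-34216321). Psmb9 and Tap1 run in opposite directions and their annotated 5′ ends overlap by 212 bases. Transposase-cut libraries keep no strand, so reads in the overlap cannot be assigned to one of the pair by strand.

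Promoter sequence was available for 8 of the 10 genes (Tap2 and Nlrc5 were not matched) in RefSeq windows of GRCm38.p6 that run from 250 bases before the start site to 50 after it. The 4 shown are those whose motifs and shared bases are described next: the paired heavy chains, their light chain, and the promoter that Tap1 shares with Psmb9. Each is given 5′ to 3′ on the gene's own strand up to 20 bases after the start site: H2-K1 at chr17:34000328-34000597 (minus strand), H2-D1 at chr17:35262844-35263113 (plus strand), B2m at chr2:122147437-122147706 (plus strand) and Tap1 at chr17:34187306-34187575 (plus strand). Capitals mark the CCAAT box on either strand, the NF-kB core GGGGATTCC, and the interferon response element core, which is GAAA followed by any 2 bases and GAAA again.
H2-K1: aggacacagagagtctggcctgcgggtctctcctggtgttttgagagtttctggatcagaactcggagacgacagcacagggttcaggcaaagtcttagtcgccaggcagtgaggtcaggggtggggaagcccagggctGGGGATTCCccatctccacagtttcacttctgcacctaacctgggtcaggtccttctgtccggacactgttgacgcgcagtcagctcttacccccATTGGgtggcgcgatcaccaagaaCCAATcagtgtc
H2-D1: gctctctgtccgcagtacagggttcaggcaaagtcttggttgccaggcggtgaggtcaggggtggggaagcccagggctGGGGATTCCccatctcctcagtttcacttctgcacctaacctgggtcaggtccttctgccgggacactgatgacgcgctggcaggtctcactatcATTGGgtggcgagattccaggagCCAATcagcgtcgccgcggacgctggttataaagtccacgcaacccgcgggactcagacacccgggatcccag
B2m: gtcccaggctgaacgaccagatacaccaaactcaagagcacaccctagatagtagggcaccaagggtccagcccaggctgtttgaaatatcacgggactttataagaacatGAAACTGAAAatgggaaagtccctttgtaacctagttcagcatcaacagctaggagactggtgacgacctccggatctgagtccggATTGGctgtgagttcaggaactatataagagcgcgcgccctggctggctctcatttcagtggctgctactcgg
Tap1: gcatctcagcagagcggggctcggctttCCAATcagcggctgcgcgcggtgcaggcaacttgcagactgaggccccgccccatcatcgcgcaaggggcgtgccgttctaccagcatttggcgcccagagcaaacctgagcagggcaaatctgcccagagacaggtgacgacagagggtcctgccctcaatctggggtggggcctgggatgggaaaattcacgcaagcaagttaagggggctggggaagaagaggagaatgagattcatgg

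The windows of H2-K1 and H2-D1, shifted by 60 bases against each other, matched at 176 of 240 bases (73.3%), and both carry the NF-kB core, at -111 and at -171 bases from the annotated start site respectively. That core was found in 2 of the 8 promoters and in 0.252% of 32544 windows of the same length, and it was searched after the windows had been read. For that reason, and because the 2 windows resemble each other, no excess is read from these shares. B2m carries the interferon response element core at -139, which was found in 1 of the 8 promoters and in 3.45% of all windows. A STAT site, TTC and GAA around any 3 bases, was found in 1 of the 8, Psmb8 at -97, and in 8.33% of all windows. The CCAAT box was found in 6 of the 8 and in 37.4% of all windows. None of the motifs searched overlapped another in these windows. In RefSeq, Tap1 and Psmb9 start 226 bases apart on opposite strands and point away from each other, unlike their overlap in GENCODE. Their windows share 275 bases, including the single CCAAT box of each. RefSeq starts lay 364 bases from the GENCODE start for H2-D1, 434 for Psmb9, 474 for Psmb8 and 3579 for Tapbp. For the rest they lay 0 to 52 bases away. Motif positions therefore depend on the annotation used. Only exact matches to these letters were counted, so a window without a match may still hold a variant of the element. These matches describe letters in reference windows and not binding in islets.

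Values are deposited log2 CPM, the log2 of a gene's counts scaled to a fixed library total, and differences are PAHSA minus vehicle. The library size estimated from the values given to unread genes was 35268423 to 45241772 counts, which need not equal the reads counted. The 20 islet endocrine markers summed to 216700 to 265800 CPM in vehicle and 238000 to 257200 in PAHSA, with Ins2 at a mean of 16.35 log2 CPM in vehicle and 16.53 in PAHSA. Acinar genes, from the exocrine tissue around islets, summed to 12250 to 49650 CPM in vehicle and 462.8 to 18400 CPM in PAHSA, and all 23 tested acinar markers had lower means in PAHSA (median difference -2.36), of which 17 had an unadjusted p under 0.05 and none passed adjustment. The count of 17 was 0 without vehicle replicate 4, 1 without vehicle replicate 5 or PAHSA replicate 1, and 7 without PAHSA replicate 4. Correlation between libraries ran from 0.824 to 0.937, and the labels name no batch or date.

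None of the 10 class I genes changed past the test. Their means were lower in PAHSA for 8 and higher for 2, against 50.8% of all tested genes with a lower mean. None reached an unadjusted p of 0.05, which 7.31% of all tested genes did (4.29% lower and 3.02% higher). No gene in the table passed Benjamini-Hochberg adjustment in limma (0%, with a smallest adjusted p of 0.671 and 894 genes at an unadjusted p under 0.05), and no class I gene had groups that did not overlap, which 4.01% of tested genes had. The median difference over the 10 was -0.16, beside -0.006 over all tested genes. That median was -0.06 without vehicle replicate 1, -0.09 without PAHSA replicate 1, -0.26 without vehicle replicate 5 and -0.04 after quantile normalization. Adjusted p-values of the 10 ran from 0.757 to 0.979. Leaving out 1 library changed the unadjusted count: without vehicle replicate 5, H2-K1, H2-D1, B2m and Tap2 (4 of the 10) had an unadjusted p under 0.05. Their differences were -0.35, -0.29, -0.42 and -0.28, with adjusted p = 0.795 for each in limma. In that fit 766 of all 12231 tested genes had such an unadjusted p. The 4 genes moved together over the 8 libraries (Pearson's r 0.65 to 0.99), so they are not 4 separate results.

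H2-K1, which displays peptide to CD8 T cells, stood at 9.26, 8.97, 9.12 and 8.64 log2 CPM in vehicle replicates 1, 3, 4 and 5 and at 8.43, 8.92, 8.73 and 8.99 in PAHSA replicates 1 to 4. Vehicle replicates 1 and 4 were the highest, PAHSA replicate 1 was the lowest, and the groups overlapped. The group means were 9.0 ± 0.27 and 8.77 ± 0.25 (SD, n = 4 each), a difference of -0.23 (SE 0.15, 95% confidence interval -0.57 to 0.11, limma adjusted p = 0.763). The difference was -0.14 without vehicle replicate 1, -0.12 without PAHSA replicate 1 and -0.35 without vehicle replicate 5.

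H2-D1, the second classical heavy chain of the table, stood at 11.76, 11.46, 11.64 and 11.24 in vehicle and at 11.06, 11.44, 11.34 and 11.45 in PAHSA, in the same replicate order. The same libraries were at the top and at the bottom as for H2-K1. Its difference was -0.20 (SE 0.13, interval -0.48 to 0.08, limma adjusted p = 0.757), and it was -0.12 without vehicle replicate 1, -0.11 without PAHSA replicate 1 and 0.02 after quantile normalization. Of the stretches of 31 bases in H2-K1 transcripts, 11.1% also occur in H2-D1, and 13.8% of those of H2-D1 occur in H2-K1. Shared with any other gene were 22.8% for H2-K1 and 26.9% for H2-D1. The 2 genes are therefore partly uncertain as separate measures. NOD is not the reference strain, so its allele of either gene may differ from the reference sequence, and any effect on these values was not tested.

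B2m, the light chain that every class I heavy chain needs to reach the surface, stood at 10.83, 10.29, 10.86 and 9.98 in vehicle and at 9.85, 10.46, 10.13 and 10.50 in PAHSA. Vehicle replicates 1 and 4 stood above all others, while vehicle replicate 5 and PAHSA replicate 1 stood below. Its difference was -0.25 (SE 0.21, interval -0.71 to 0.21, limma adjusted p = 0.825), or 0.839-fold with an interval of 0.610 to 1.153. Without vehicle replicate 5 the difference was -0.42. It was -0.14 without vehicle replicate 1, -0.13 without vehicle replicate 4 and -0.13 without PAHSA replicate 1. B2m shares none of its stretches of 31 bases with another gene.

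**Figure D1:**
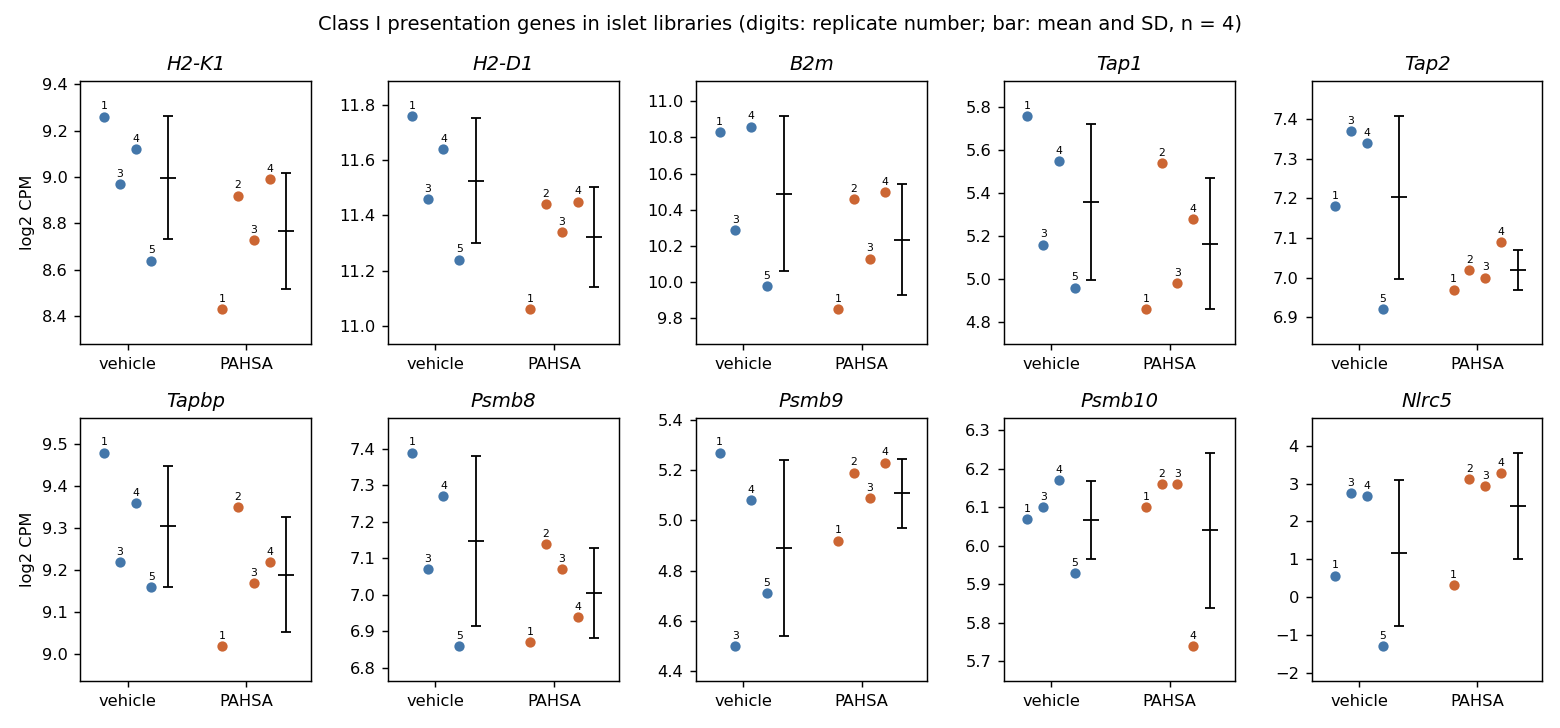
Level of each of the 10 class I genes (vertical axis, log2 CPM, with a scale of its own in each panel) in vehicle (blue) and PAHSA (orange) libraries. Points are libraries with their replicate numbers and bars are the mean and SD of 4; the groups overlap in every panel, and in the H2-K1 panel vehicle replicate 1 stands highest at 9.26 and PAHSA replicate 1 lowest at 8.43.

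Tap1, a subunit of the peptide transporter, stood at 5.76, 5.16, 5.55 and 4.96 in vehicle and at 4.86, 5.54, 4.98 and 5.28 in PAHSA. PAHSA replicate 2 lay beside the high vehicle replicates 1 and 4, and PAHSA replicates 1 and 3 beside the low vehicle replicate 5. The difference was -0.19 (SE 0.22, interval -0.68 to 0.30, limma adjusted p = 0.883). Its size rested on single libraries: it was -0.06 without vehicle replicate 1, -0.09 without PAHSA replicate 1, and -0.32 without vehicle replicate 5 or PAHSA replicate 2.

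Tap2, the other transporter subunit, stood at 7.18, 7.37, 7.34 and 6.92 in vehicle and at 6.97, 7.02, 7.0 and 7.09 in PAHSA. The 4 PAHSA libraries lay close together (SD 0.05, beside 0.21 in vehicle), below vehicle replicates 1, 3 and 4 and above vehicle replicate 5. Its difference of -0.19 (SE 0.12, interval -0.44 to 0.07) had the smallest unadjusted p of the 10 genes, 0.144 (limma adjusted p = 0.757), and was -0.28 without vehicle replicate 5. Whether the spread itself differed between the groups was not tested. Tap2 shares 14.3% of its stretches of 31 bases with other genes, 11.3% with the predicted gene Gm15821, so its level is partly uncertain.

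Tapbp, which encodes tapasin, stood at 9.48, 9.22, 9.36 and 9.16 in vehicle and at 9.02, 9.35, 9.17 and 9.22 in PAHSA, with a difference of -0.11 (SE 0.10, interval -0.34 to 0.11, limma adjusted p = 0.843). Its groups overlapped over most of their range, and the difference was -0.06 without vehicle replicate 1 or PAHSA replicate 1 and 0.00 after quantile normalization. Tapbp shares 22.1% of its stretches of 31 bases with the predicted gene Gm19412, so its level is partly uncertain.

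Among the immunoproteasome subunits, Psmb8, which replaces Psmb5, stood at 7.39, 7.07, 7.27 and 6.86 in vehicle and at 6.87, 7.14, 7.07 and 6.94 in PAHSA. The high vehicle replicates 1 and 4 recur here. Its difference was -0.14 (SE 0.13, interval -0.43 to 0.15, limma adjusted p = 0.845), which was -0.06 without vehicle replicate 1 and -0.24 without vehicle replicate 5. Psmb8 shares 13% of its stretches with the predicted gene Gm20496.

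Psmb9, which replaces Psmb6, was one of the 2 genes with a higher mean in PAHSA. It stood at 5.27, 4.50, 5.08 and 4.71 in vehicle and at 4.92, 5.19, 5.09 and 5.23 in PAHSA, with a difference of 0.22 (SE 0.20, interval -0.23 to 0.66, limma adjusted p = 0.845). Vehicle replicate 1 was still the highest library, and vehicle replicates 3 and 5 lay below all PAHSA libraries. The difference was 0.34 without vehicle replicate 1 and 0.09 without vehicle replicate 3.

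Psmb10, which replaces Psmb7, stood at 6.07, 6.10, 6.17 and 5.93 in vehicle and at 6.10, 6.16, 6.16 and 5.74 in PAHSA. Over the 8 libraries it had the narrowest range of the 10 genes, 0.43 on the log2 scale, and PAHSA replicate 4 was the low one. Its difference was -0.03 (SE 0.14, interval -0.33 to 0.27, limma adjusted p = 0.979) and 0.07 without that library, so its direction rests on it. The difference was also 0.01 without vehicle replicate 4, 0.14 with the acinar marker mean as a covariate and 0.00 with each library scaled to the same total.

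The constitutive partners were read in the same libraries. Psmb5 stood at 6.56, 6.50, 6.80 and 6.40 in vehicle and at 6.34, 6.78, 6.66 and 6.76 in PAHSA. Differences were 0.07 (SE 0.14) for Psmb5, 0.02 (SE 0.10) for Psmb6 and 0.13 (SE 0.12) for Psmb7, and none passed the test. The directions for Psmb5 and Psmb6 turned to -0.03 and -0.01 in the 6 libraries numbered 1, 3 and 4.

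The log2 ratio of an immunoproteasome subunit to its constitutive partner is taken within a library and so is free of that library's scaling. Psmb8 to Psmb5 stood at 0.83, 0.57, 0.47 and 0.45 in vehicle and at 0.53, 0.35, 0.41 and 0.18 in PAHSA. The 3 lowest ratios were all from PAHSA libraries, and PAHSA replicate 1 fell within the vehicle range. The difference was -0.21 (SE 0.11), with an exact two-sided permutation p of 0.1143 and 0.343 after adjustment over the 3 ratios. It was -0.13 without vehicle replicate 1. With 70 assignments of 4 against 4 the smallest p this test can give is 0.0286.

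Psmb9 to Psmb6 stood at -2.03, -2.88, -2.54 and -2.73 in vehicle and at -2.45, -2.37, -2.30 and -2.29 in PAHSA. The PAHSA libraries kept within a narrow band above 3 of the 4 vehicle libraries, and vehicle replicate 1 was higher than all of them. The difference was 0.19 (SE 0.19, exact permutation p = 0.3429), and it was 0.37 without vehicle replicate 1 and 0.08 without vehicle replicate 3. Psmb10 to Psmb7 stood at -0.08, 0.12, -0.18 and -0.26 in vehicle and at -0.15, -0.20, -0.14 and -0.53 in PAHSA, a difference of -0.16 (SE 0.12, exact permutation p = 0.3429) that was -0.07 without PAHSA replicate 4 and -0.08 without vehicle replicate 3. Both had an adjusted p of 0.343 over the 3 ratios.

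**Figure D2:**
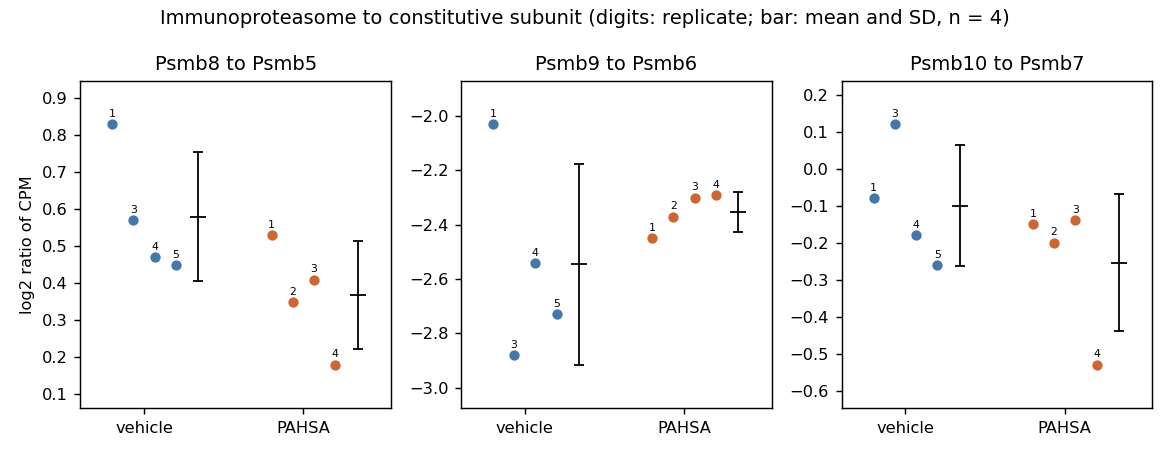
Log2 ratio of each immunoproteasome subunit to the constitutive subunit it replaces (vertical axis, with a scale of its own in each panel) in vehicle (blue) and PAHSA (orange) libraries, with replicate numbers and the mean and SD of 4. The Psmb8 to Psmb5 ratio averages 0.58 in vehicle and 0.37 in PAHSA, and the groups overlap in all 3 panels.

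Nlrc5, the regulator that binds class I promoters with the RFX factors and raises their transcription, varied far more than the genes it regulates. It stood at 0.57, 2.75, 2.67 and -1.29 log2 CPM in vehicle and at 0.31, 3.11, 2.94 and 3.28 in PAHSA. On the linear scale this is 1.49, 6.73, 6.36 and 0.409 CPM in vehicle and 1.24, 8.61, 7.69 and 9.73 CPM in PAHSA, or about 18 to 388 estimated counts per library. Vehicle replicates 1 and 5 and PAHSA replicate 1 held 1.49 CPM or less, and the other 5 libraries held at least 6.36 CPM. Its range of 4.57 over the libraries (23.8-fold) compares with 0.43 to 1.0 for the other 9 genes. The difference of 1.24 (SE 0.98, interval -0.92 to 3.40, limma adjusted p = 0.818) was not beyond that spread. It was 0.41 without vehicle replicate 5 and 1.94 without PAHSA replicate 1.

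**Figure D3:**
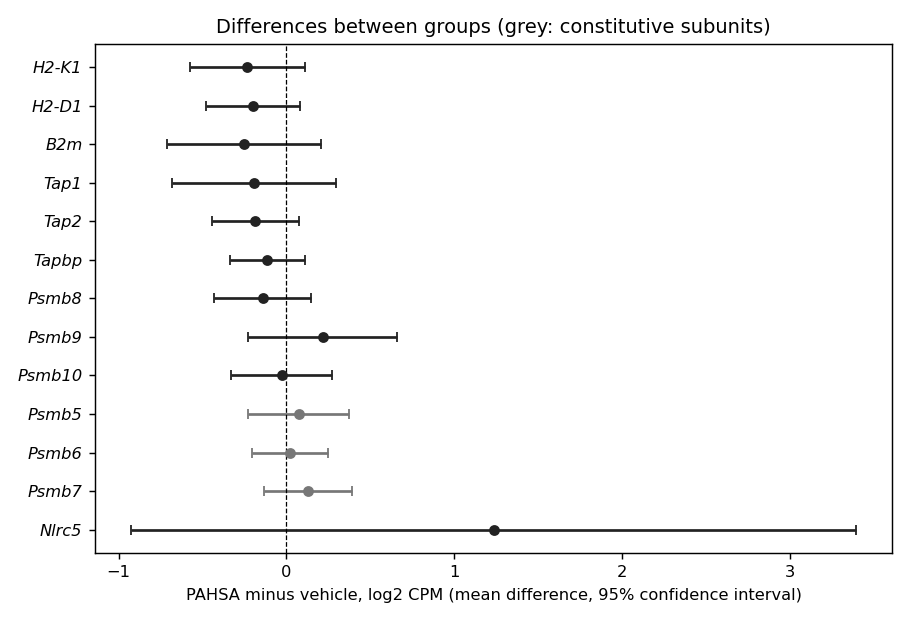
Mean difference between PAHSA and vehicle (horizontal axis, log2 CPM, points) with its 95% confidence interval (lines) for the 10 class I genes (black) and the 3 constitutive subunits (grey). Every interval includes 0, and Nlrc5 has the widest, from -0.92 to 3.40.

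Levels were set beside each other only per kb of the longest coding transcript, since libraries of whole transcripts give longer ones more reads. In vehicle islets B2m stood highest at 1720 ± 489 CPM per kb, followed by H2-D1 at 1410 ± 216 (SD, n = 4), and the libraries of these neighbours overlapped. H2-K1 came next at 320 ± 56.9 and Tapbp at 219 ± 22.3. Their lowest and highest libraries met. Psmb8 (87.8 ± 13.8), Psmb10 (51.3 ± 3.6) and Tap2 (43.1 ± 5.92) followed, and the libraries of Psmb10 and Tap2 overlapped. Psmb9 at 22.4 ± 5.38 and Tap1 at 14.2 ± 3.55 overlapped too, and Nlrc5 stood lowest at 0.494 ± 0.431 CPM per kb. The order was the same in PAHSA islets, where B2m stood at 1420 ± 289 and Nlrc5 at 0.9 ± 0.503. Among constitutive subunits Psmb6 stood at 217 ± 21 CPM per kb in vehicle, above each immunoproteasome subunit, Psmb5 at 106 ± 12.6, overlapping Psmb8, and Psmb7 at 62.2 ± 6.56, below Psmb8. These overlaps compare different libraries. All genes were read in the same libraries, and their order within each library was not tested.

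The spread within each group followed the same libraries for most of these genes. Vehicle replicate 1 was the highest library for 6 of the 10 genes and vehicle replicate 4 for 2. Vehicle replicate 3 and PAHSA replicate 4 were the highest for 1 each, and PAHSA replicate 2 was among the 3 highest for 6. Vehicle replicate 5 was among the 2 lowest for all 10, and PAHSA replicate 1 among the 2 lowest for 8. So each group held a library near the bottom, and the highest library was a vehicle one for most of these genes. Summed over the 10 genes, CPM stood at 7085, 5598, 6730 and 4749 in vehicle and at 4297, 5763, 5112 and 5756 in PAHSA.

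**Figure D4:**
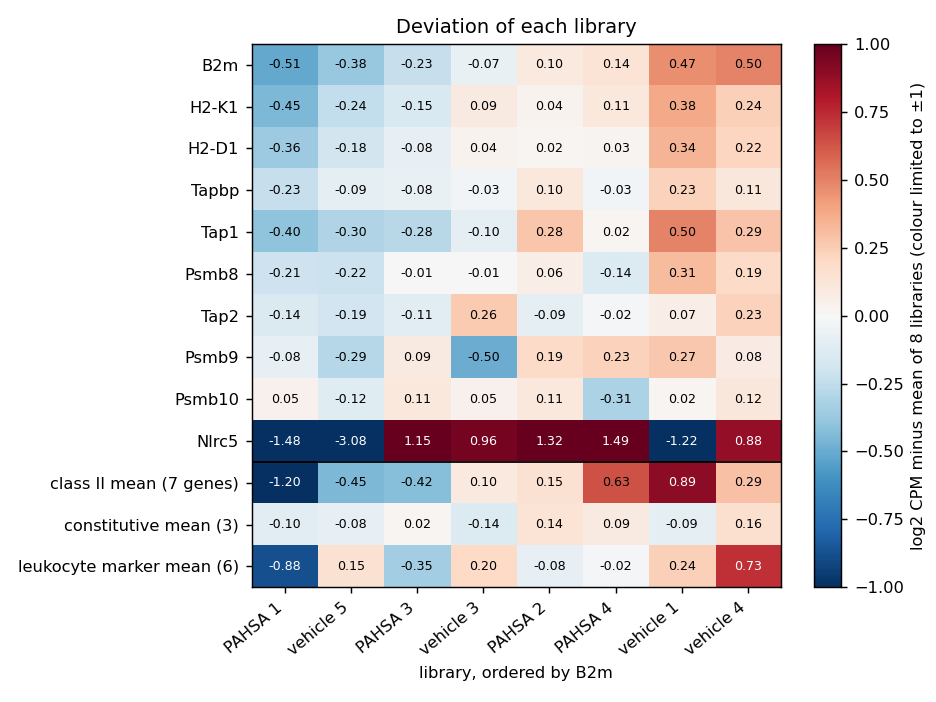
Log2 CPM of each class I gene minus its mean over the 8 libraries (colour and printed values, colour limited to 1 either way), with libraries in columns ordered by B2m from low to high. Rows below the line give the means of 7 class II genes, 3 constitutive subunits and 6 leukocyte markers. The first 6 rows and the class II row pass from blue to red from left to right, apart from PAHSA replicate 4 in Tapbp and Psmb8, while Psmb9, Psmb10 and Nlrc5 do not follow that order.

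Because B2m pairs with every class I heavy chain, it was taken as the reference for this shared pattern, after its values had been seen, in 14 relations over 8 libraries. H2-K1 followed it most closely, with Pearson's r = 0.96 (exact permutation p = 0.000198, adjusted over the 14 relations 0.00191) and Spearman's rho = 0.95 (exact p = 0.00114). H2-D1 had r = 0.96 (exact p = 0.000273, adjusted 0.00191) and rho = 0.90 (exact p = 0.00456). Tap1 had r = 0.94 (exact p = 0.000818, adjusted 0.00382) and Tapbp r = 0.92 (exact p = 0.00119, adjusted 0.00417), both with rho = 0.95 (exact p = 0.00114). Without the 2 libraries farthest from the median of B2m, vehicle replicate 4 and PAHSA replicate 1, r for these 4 genes was 0.97, 0.95, 0.94 and 0.90. With the group means removed it was 0.95, 0.96, 0.93 and 0.91, so the relation held within the groups.

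Psmb8 had r = 0.86 (exact permutation p = 0.00727, adjusted 0.017) and rho = 0.81 (exact p = 0.0218, adjusted 0.0509), with r = 0.80 without those 2 libraries. Within groups its r was 0.84, and it was 0.97 over vehicle and 0.52 over PAHSA libraries. Tap2 had r = 0.65 (exact p = 0.0866, adjusted 0.152) and rho = 0.74 (exact p = 0.0458, adjusted 0.0801), and r fell to 0.42 without the 2 libraries. Psmb9 had r = 0.55 (exact p = 0.161) and rho = 0.57 (exact p = 0.151), with 0.63 without the 2 libraries and 0.83 within groups. Psmb10 had r = 0.08 (exact p = 0.872) and rho = 0.24 (exact p = 0.582), with -0.02 without the 2 libraries. Nlrc5 had r = 0.41 (exact p = 0.312) and rho = 0.38 (exact p = 0.36), with 0.22 without the 2 libraries: vehicle replicate 1, among the highest for H2-K1 and B2m, was among the 3 lowest for Nlrc5. All these values share the library's scaling, and the constitutive subunits' mean, which shares it too, had r = 0.49 (exact p = 0.213), rho = 0.55 (exact p = 0.171) and r = 0.11 without the 2 libraries.

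MHC class II genes, which antigen-presenting leukocytes express, varied across the libraries in a similar order. The mean of the 7 class II genes tested stood at 5.05, 4.25, 4.44 and 3.70 log2 CPM in vehicle and at 2.96, 4.31, 3.73 and 4.79 in PAHSA. Its relation to B2m had r = 0.89 (exact permutation p = 0.00335, adjusted 0.00938) and rho = 0.93 (exact p = 0.00223), with r = 0.95 without vehicle replicate 4 and PAHSA replicate 1 and 0.87 within groups. H2-Ab1, a class II beta chain, stood at 7.26, 6.16, 6.36 and 5.43 in vehicle and at 4.78, 5.94, 5.24 and 6.62 in PAHSA. Cd74, the invariant chain of class II, stood at 8.55, 7.56, 7.82 and 6.83 in vehicle and at 6.42, 7.37, 7.14 and 7.77 in PAHSA. In the group comparison all 7 class II genes had lower means in PAHSA with a median difference of -0.51, and none reached an unadjusted p of 0.05. Without PAHSA replicate 1, 4 of the 7 had lower means with a median of -0.13, and the median was -0.23 without vehicle replicate 1. With the leukocyte marker mean as a covariate 0 of the 7 were lower. With 1 marker, Cyba, left out of that mean, all 7 were lower with a median of -0.55. In the 6 libraries numbered 1, 3 and 4 the median was -0.87 with 3 of the 7 at an unadjusted p under 0.05. In these libraries 822 of all 12231 tested genes had such a limma p, or 747 with the replicate block. In bulk islets, fewer cells of a type and less RNA per cell cannot be told apart.

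**Figure D5:**
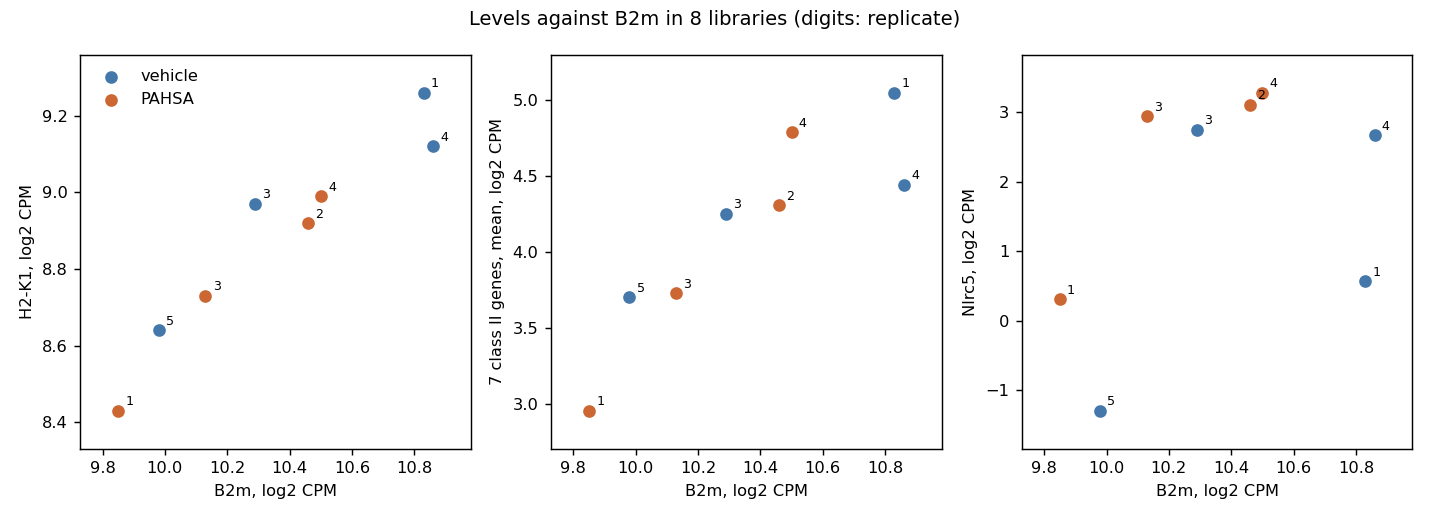
Levels of H2-K1, of the mean of 7 class II genes and of Nlrc5 (vertical axes, log2 CPM) against B2m (horizontal axes, log2 CPM) in the 4 vehicle (blue) and 4 PAHSA (orange) libraries, with replicate numbers. H2-K1 (r = 0.96) and the class II mean (r = 0.89) rise along B2m with both groups intermixed, whereas Nlrc5 (r = 0.41) lies low in 3 libraries at both ends of the B2m range.

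Leukocyte markers were sparse beside this. Of 25 T and NK cell markers 2 were in the table and 1 was tested (Lck), of 13 B cell markers 1 was in the table and none was tested, of 24 macrophage and dendritic cell markers 3 were tested (Cd68, Cd14 and C1qa), and of 12 pan-leukocyte markers 2 were tested (Ptpn6 and Cyba). Cd8a and Cd79a were the markers in the table whose mean was too low for the test, and the defining markers Ptprc and Cd3e were not analysed here. The macrophage and dendritic cell markers summed to 74.27 to 108.4 CPM in vehicle and 54.06 to 87.95 in PAHSA, and the pan-leukocyte markers to 39.13 to 60.86 and 39.05 to 72.23. The mean of the 6 leukocyte markers tested had r = 0.75 with B2m (exact permutation p = 0.026, adjusted 0.052) and rho = 0.74 (exact p = 0.0458), and r = 0.33 without vehicle replicate 4 and PAHSA replicate 1. The 6 markers did not move alike. Cyba differed by -1.997, Cd14 by -1.231 and Lck by -1.035, whereas Cd68 differed by -0.105 and Ptpn6 by 0.126. C1qa also had a higher mean in PAHSA, so no general drop of leukocyte markers is read from these values. The mean of the 6 did not overlap between the groups, at 3.757 to 4.338 in vehicle and 2.731 to 3.583 in PAHSA. A fit with it as a covariate therefore cannot tell it apart from the treatment. In that fit, 2 of the 10 class I genes were lower in PAHSA instead of 8, and B2m differed by 0.32. Within that mean 1 marker stood apart: Cyba, a subunit of the phagocyte oxidase, was at -4.46 log2 CPM in PAHSA replicate 1 and between -0.23 and 2.17 in the other libraries. With the 5 other markers as the covariate, a choice made after seeing the data, 8 of the 10 were lower and B2m differed by -0.03. Their mean did not overlap between the groups either, at 4.241 to 4.772 in vehicle and 3.895 to 4.169 in PAHSA. The acinar marker mean had r = 0.12 with B2m (exact p = 0.813), rho = 0.26 (exact p = 0.536) and r = -0.33 without the 2 libraries. The 5 endothelial markers tested were all lower in PAHSA on average and summed to 42.06 to 81.01 CPM in vehicle and 36.9 to 51.99 in PAHSA, and 9 of 10 tested stellate and fibroblast markers were lower. The part of other cell types in the class I values was not tested beyond these covariates.

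Other genes of the pathway were read from lists. Of 22 other class I heavy chains 11 were tested, of which 9 had lower and 2 higher means in PAHSA, none at an unadjusted p under 0.05, with a median difference of -0.13. Without PAHSA replicate 1, 6 of the 11 were lower with a median of -0.02, and the median was -0.04 without vehicle replicate 1. With the leukocyte marker mean as a covariate 2 of the 11 were lower, and all 11 with Cyba left out of that mean. H2-Q6, a Qa-region class I gene, differed by -0.39 (SE 0.21, limma adjusted p = 0.728), H2-Q4 by -0.20 (SE 0.17) and H2-Q2 by -0.13 (SE 0.11). These genes resemble H2-K1 and H2-D1 in sequence, so their levels are uncertain as separate measures.

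Of 20 genes of peptide supply and loading (proteasome activators, trimming peptidases and chaperones of the endoplasmic reticulum) 19 were tested. They had 13 lower and 6 higher means, 1 at an unadjusted p under 0.05 in each direction and a median of -0.09. Of all tested genes, 4.29% reached that limma p with a lower mean and 3.02% with a higher one. Under quantile normalization 7 of the 19 were lower, and 6 of the 19 with the leukocyte marker mean as a covariate. With Cyba left out of that mean, 12 of the 19 were lower. Lap3, an aminopeptidase, differed by 0.45 (SE 0.17, unadjusted p = 0.0228, limma adjusted p = 0.671). Sec61a1, the pore of the translocon, stood at 9.31, 9.29, 9.33 and 9.30 in vehicle and at 8.88, 9.09, 9.17 and 9.18 in PAHSA. Its groups did not overlap and the vehicle libraries ran only from 9.29 to 9.33, yet the difference of -0.23 (SE 0.09, unadjusted p = 0.0231) did not pass adjustment in limma (0.671). It was -0.12 (unadjusted p = 0.163) after quantile normalization and -0.08 (unadjusted p = 0.533) with the leukocyte covariate. With Cyba left out of that covariate the Sec61a1 difference was -0.26 (limma unadjusted p = 0.0903). Calr, calreticulin, a chaperone of the loading complex, differed by -0.20 (SE 0.09, limma unadjusted p = 0.0569).

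Of 34 regulators of class I (interferon receptors, JAK and STAT factors, their inhibitors, and NF-kB and RFX factors) 32 were tested, with 20 lower and 12 higher means and a median of -0.12. At an unadjusted p under 0.05 in limma, which 7.31% of all tested genes reached, was 1 of the 32, Socs3, an inhibitor of JAK signalling. It stood at 7.35, 7.69, 7.18 and 7.27 in vehicle and at 6.50, 7.15, 6.98 and 7.04 in PAHSA, with no overlap and a difference of -0.45 (SE 0.16, unadjusted p = 0.0166) that did not pass adjustment in limma (0.671). Ptpn2, a phosphatase that acts on JAK and STAT proteins, differed by -0.37 (SE 0.17) and Rfxap, a subunit of the RFX complex, by 0.49 (SE 0.25).

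Of 57 interferon-stimulated genes 45 were tested, with 24 lower and 21 higher means and a median of -0.04. This split moved with the libraries: 31 of the 45 were lower without vehicle replicate 5 (median -0.12), 33 in the libraries numbered 1, 3 and 4 (median -0.20), and 20 without vehicle replicate 1 (median 0.03) or without PAHSA replicate 1 (median 0.07). Of the 45, 3 had an unadjusted p under 0.05 in limma, beside 7.31% of all tested genes, so no excess is read from this count. All 3 were lower: Ifitm3, a membrane protein that restricts virus entry, by -1.01 (SE 0.35), Samd9l by -0.78 (SE 0.33) and Isg20, an exonuclease, by -0.27 (SE 0.12). None passed adjustment in limma. Samd9l was at -0.44 without PAHSA replicate 4. The mean of the 45 had r = 0.62 with B2m (exact permutation p = 0.1, adjusted 0.156), rho = 0.52 (exact p = 0.197) and r = 0.70 without the 2 libraries.

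Likeness to the class I genes was measured as Pearson's r with the mean of their 10 standardised profiles, over 8 libraries and 11442 other genes, and is given without a test. The 8 most alike were Synrg (0.949), Yipf5 (0.947), Tnfrsf1a (0.944), Bhlhb9 (0.934), Edem2 (0.905), Dnajc6 (0.905), Dnah11 (0.898) and Cd74 (0.894). Tnfrsf1a is the main receptor for tumour necrosis factor, Edem2 acts in degradation of misfolded proteins of the endoplasmic reticulum, and Cd74 is the class II chain described above. All share the scaling of the same 8 libraries, and nothing on shared function or control is read from these values.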

How the data were processed

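RNA from islets of NOD mice was sequenced in 8 libraries (Nextera XT, which keeps no strand, per the labels' protocols). The deposited values are log2 CPM per Ensembl gene, made by the authors with kallisto and limma, per the submitters' processing notes; no source used here gives versions, build or annotation. kallisto divides reads that fit several genes, which bears on H2-K1 and H2-D1. The table holds 13725 genes, of which 13669 matched a symbol. Library size, 35268423 to 45241772 counts, was computed by taking each library's lowest value as 0.5 counts, and holds any scaling behind the deposited values. Genes with a mean log2 CPM above 0 (12231) were tested with limma 3.58.1 (R 4.3.3; lmFit, eBayes with trend), two-sided, with Benjamini-Hochberg adjustment over all of them at 0.05. The adjusted p-values in the text are from this fit unless a permutation test is named; 3 ratios and 14 relations over libraries were tested by exact permutation (Python 3.11.15, scipy 1.17.1). The limma step was tested on simulated data. Gene positions are from GENCODE M21 and promoters from RefSeq; shared stretches were counted as words of 31 bases. Named are all 10 class I genes, 3 constitutive subunits, the 3 genes of smallest unadjusted p in each pathway list, the 2 most abundant markers of other cells where a result uses them, and the 8 most alike genes. Sec61a1 and Socs3 are among these. C1qa and the markers named as untested or not analysed were named after values were seen. The class I genes, lists and tests were chosen with earlier results of these data known. Alternatives changed the filter, pseudocount, scaling, trend, covariates and libraries, and are given at the end.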

Additional observations from a re-analysis of the deposited data

Results flagged for a closer look

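In groups of 4 libraries, a library was singled out when its gap to the nearest other, divided by the range of the group, exceeded Dixon's 95% critical value. Of 32 groups checked, 3 met this, and chance flags about 1 in 20. Psmb10 stood at 5.74 log2 CPM in PAHSA replicate 4, below the other PAHSA libraries (gap over range 0.852), and the Psmb10 to Psmb7 log2 ratio was -0.53 in the same library (0.846). Nlrc5 stood at 0.31 log2 CPM in PAHSA replicate 1 (0.886). The vehicle group held 2 such low values of Nlrc5, 0.57 and -1.29.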

How the results depend on the processing

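No gene of the table passed adjustment in limma under any of the 21 alternatives run (618 to 1021 genes at an unadjusted p under 0.05), so the 10 class I genes stayed uncalled in each; their unadjusted p under 0.05 were B2m and H2-K1 with the replicate block (0.0199 and 0.0405), these and H2-D1 in the same 6 libraries unpaired, Nlrc5 with the leukocyte covariate (0.0104), and 4 genes without vehicle replicate 5. Lower means were found for 2 of the 10 with the leukocyte marker mean as a covariate, for 6 after quantile normalization, for 7 to 8 when 1 library was left out, and for 7 or 8 otherwise (8 of the 9 tested with a minimum mean of 2). With the leukocyte marker mean as a covariate, differences turned to 0.15 for H2-K1, 0.09 for H2-D1, 0.32 for B2m, 0.24 for Tap1, 0.07 for Tapbp, 0.03 for Psmb8, 0.01 for Calr, 0.13 for Ptpn2, 0.27 for Cd74, 0.01 for H2-Q4, 0.20 for H2-Aa, -0.01 for Rfxap, 0.19 for H2-Q6, 0.29 for H2-Ab1 and 0.01 for H2-Q2; with Cyba left out of that mean, 8 of the 10 class I genes were lower again and none of these turned. Quantile normalization turned H2-D1 to 0.02, Tapbp to 0.00 and Calr to 0.08, and the correlation with B2m to -0.08 for Psmb10 and -0.28 for the acinar mean; that of Psmb8 was 0.76 (exact permutation, adjusted p = 0.058). Scaling to equal totals turned Psmb10 to 0.00 and its correlation with B2m to -0.10, and the acinar covariate turned Psmb10 to 0.14. When 1 library was left out, Psmb10 ran from -0.07 to 0.07 and Psmb6 from -0.02 to 0.09. The cause of these turns was not tested. The leukocyte marker mean, with or without Cyba, did not overlap between the groups, so its fits cannot tell it apart from the treatment.

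Replicate numbers 1, 3 and 4 occur in both groups, and the labels do not say whether they pair the libraries. Over all tested genes, deviations of same-numbered libraries correlated at -0.02 in each of the 3 pairs. No pairing was seen over all genes, which cannot exclude it for single genes. With the replicate block, 0 genes passed and 747 had an unadjusted p under 0.05, against 822 in the same 6 libraries without it; B2m differed by -0.50 and H2-K1 by -0.40, while Psmb6 turned to -0.01 and Psmb5 to -0.03, with the block and without. The 3 ratios kept their direction and missed the threshold under all 11 alternatives each. These misses carry little weight. The smallest permutation p of 4 against 4 libraries is 0.0286 before adjustment, and leaving out 1 library lifts that floor above 0.05. Scaling to equal totals cannot change a ratio taken within a library. Nlrc5 has few counts and ran from 0.18 to 3.67; its value with a minimum mean of 2 could not be fitted.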
